A study of Homo sapiens with 6 samples.

Results

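The genes described here belong to the integrated stress response and the unfolded protein response, and were chosen by name from a list of 41 known targets, 24 of an ATF4 branch and 17 of an endoplasmic reticulum (ER) branch. Of these, 22 had a row that the platform annotation assigns to the gene, among 14884 named genes in all, 14 in the ATF4 branch and 8 in the ER branch. All 22 lay above the filter on dim genes and were tested. CEBPB, CEBPG, NUPR1, CHAC1, MTHFD2, ALDH1L2, SLC7A5, SLC3A2, SLC6A9 and XPOT of the ATF4 branch, and HSPA5, HSP90B1, DNAJB9, DNAJC3, PDIA4, PDIA6, HERPUD1, EDEM1 and SYVN1 of the ER branch, were not analysed here.

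RNA came from A549, an established human lung carcinoma cell line, harvested 48 hours after lipid transfection of siNC, the control siRNA, or of siMYEOV #1 or siMYEOV #2, which both target MYEOV, a gene named for its overexpression in myeloma cells. Each of the 3 groups had 2 whole-transcript arrays, numbered replicate 1 and replicate 2 in the labels, and all 6 went through the same transfection reagent in the same medium. The labels do not say whether replicates were separate transfections, and the spread behind each p-value may therefore be technical only. The design asks which transcripts follow the loss of MYEOV, and the 2 siRNAs allow their effects to be set side by side. Since whole cultures were measured, fewer cells of a kind and less RNA per cell cannot be told apart. Neither siRNA sequence nor the identity of siNC is given in the sources used here.

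Cells sense trouble in protein synthesis along 2 routes that meet in these genes. Kinases that respond to amino acid shortage, ER stress, viral RNA or heme deficiency phosphorylate the initiation factor eIF2, which slows translation in general but favours translation of ATF4, a transcription factor that raises genes for amino acid synthesis, uptake and tRNA charging, together with DDIT3 (CHOP), TRIB3 and ATF3. Unfolded protein in the ER also activates IRE1, the product of ERN1, which splices XBP1 mRNA into the form that encodes an active transcription factor, and ATF6, which is cleaved to release one. Both raise chaperones, disulfide isomerases and the machinery of ER-associated degradation. Because ATF4 is set mainly by translation, and XBP1 by splicing, the mRNA level of either gene is an incomplete measure of its activity, and the array value per gene used here does not separate spliced from unspliced XBP1.

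The promoters of the branches carry different known response elements. The members were listed as known targets of these pathways, so the shares below describe the lists and are no independent support for them. Windows from 250 bases before to 50 after each RefSeq start (GRCh38.p14) were searched on both strands for the ER stress response element ERSE (CCAAT and CCACG with 9 unspecified bases between), ERSE-II (ATTGG and CCACG with 1 between), the core of the unfolded protein response element UPRE (TGACGTGG) and the core of the C/EBP-ATF response element bound by ATF4 (TGATGNAA). ERSE, ERSE-II and the UPRE core share the letters CCACG or their complement, so their matches can overlap. Of the 17 ER branch genes, all with a window, 6 held ERSE (35.3%) and 3 ERSE-II (17.6%), against 0.0916% and 0.0696% of 27305 genes with a window. None of the 20 ATF4 branch genes with a window held either, while 5 (25%) held the C/EBP-ATF core, against 4.46% of all genes and 1 of the 17 ER branch genes. On the array, the ERSE holders were XBP1, CRELD2 and CALR, the ERSE-II holders SDF2L1 and HYOU1, and the C/EBP-ATF holders ASNS and ATF3. A match is a match of letters, and no binding was measured. A gene with several starts was counted once if any of its windows matched.

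**Figure D1:**
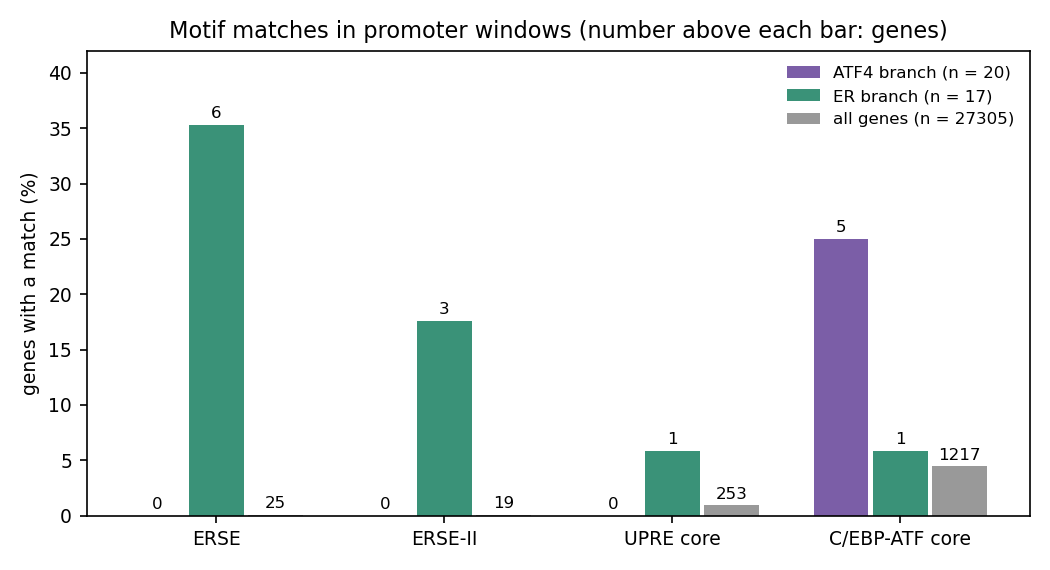
Share of genes, in percent, whose promoter window holds each of 4 motifs, for the 20 ATF4 branch genes and 17 ER branch genes with a window and for all 27305 genes, with the number of matching genes above each bar. ERSE and ERSE-II matches lie in the ER branch and the C/EBP-ATF core is more frequent in the ATF4 branch.

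Stretches of 200 bases ending at the start site are shown for 1 called member, XBP1, and for the other members with a match inside that stretch, so that the elements can be read. Capitals mark the matches of the 4 motifs, and each is written 5′ to 3′ on the gene's strand.
XBP1: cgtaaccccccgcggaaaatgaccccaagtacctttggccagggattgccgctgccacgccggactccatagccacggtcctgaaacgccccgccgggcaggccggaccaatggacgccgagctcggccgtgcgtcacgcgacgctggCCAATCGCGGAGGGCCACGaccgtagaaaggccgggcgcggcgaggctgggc
CRELD2: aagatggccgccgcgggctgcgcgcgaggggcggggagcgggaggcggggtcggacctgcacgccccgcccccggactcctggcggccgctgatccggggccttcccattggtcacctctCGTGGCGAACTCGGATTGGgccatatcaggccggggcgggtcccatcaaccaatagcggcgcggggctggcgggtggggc
SDF2L1: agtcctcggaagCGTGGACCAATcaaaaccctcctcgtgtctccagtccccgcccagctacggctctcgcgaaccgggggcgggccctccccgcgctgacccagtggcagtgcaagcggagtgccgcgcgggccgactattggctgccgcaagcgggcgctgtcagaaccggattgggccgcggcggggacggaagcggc
HYOU1: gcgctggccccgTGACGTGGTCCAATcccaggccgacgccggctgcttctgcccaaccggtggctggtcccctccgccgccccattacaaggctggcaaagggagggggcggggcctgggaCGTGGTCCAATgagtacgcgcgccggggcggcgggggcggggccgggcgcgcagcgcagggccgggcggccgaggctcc
ASNS: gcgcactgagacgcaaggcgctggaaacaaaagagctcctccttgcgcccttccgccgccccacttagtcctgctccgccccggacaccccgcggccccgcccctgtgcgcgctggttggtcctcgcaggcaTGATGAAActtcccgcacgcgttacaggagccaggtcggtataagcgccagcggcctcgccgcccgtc
ATF3: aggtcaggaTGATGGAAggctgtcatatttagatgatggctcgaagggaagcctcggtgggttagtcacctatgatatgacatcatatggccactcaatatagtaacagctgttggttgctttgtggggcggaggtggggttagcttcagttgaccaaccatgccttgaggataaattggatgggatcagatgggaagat
These are chr22:28800570-28800769 on the minus strand for XBP1, chr22:49918434-49918633 on the plus strand for CRELD2, chr22:21642102-21642301 on the plus strand for SDF2L1, chr11:119057206-119057405 on the minus strand for HYOU1, chr7:97872409-97872608 on the minus strand for ASNS and chr1:212565207-212565406 on the plus strand for ATF3, from RefSeq in GRCh38.p14. The ERSE match of XBP1 begins at position -52, counted from the start site, and reads in the direction of transcription. HYOU1 has ERSE-II matches that begin at -185 and -79, the first of which overlaps its UPRE core match at -188. Other starts of XBP1, ASNS and ATF3 had no match.

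The targeted gene was lowered by each siRNA. MYEOV had log2 signals of 6.20 and 6.50 in the siNC arrays, 5.34 and 5.19 with siMYEOV #1, and 5.23 and 4.70 with siMYEOV #2, so both groups lay below both controls. It fell by 1.09 ± 0.18 (SE) with siMYEOV #1 (limma adjusted p = 0.0215) and fell by 1.39 ± 0.18 with siMYEOV #2 (limma adjusted p = 0.00516). The group means of MYEOV were 6.35 with siNC, 5.27 with siMYEOV #1 and 4.96 with siMYEOV #2. Only the siNC mean lay above the level of the filter on dim genes. With either siNC array left out, MYEOV was not tested, so whether these calls depend on a single control array could not be checked. Without siMYEOV #1 replicate 1 or replicate 2, the adjusted p for siMYEOV #1 was 0.0882 and 0.147, and with no filter it was 0.136. Over all rows, the 6 arrays had medians between 4.08 and 4.10 and pairwise correlations between 0.988 and 0.990. The deposited values had been through RMA, which makes array distributions alike, so the medians could not show a deviating array. By the correlations no array stood apart, but they do not exclude differences in smaller sets of genes, such as the replicate gap given below. The epithelial keratins KRT8, KRT18 and KRT19 and EPCAM were above the filter, and 0 of the 4 were called by limma, with 3 at an unadjusted p under 0.05 for siMYEOV #2. SFTPC, SFTPB and NKX2-1, markers of mature alveolar type II cells, were below it, as were the endothelial and fibroblast markers PECAM1, VWF and DCN, while CD68, a macrophage marker that many cells also carry in lysosomes, was above it.

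Stress response genes hardly moved when MYEOV was lowered with siMYEOV #1. Limma with Benjamini-Hochberg adjustment over all 7442 genes tested called 0 of the 22 members, against 4.66% of all genes tested (2.28% higher and 2.38% lower), and 0 members had an unadjusted p under 0.05, against 19.2% of all genes. The members' log2 fold changes ran from -0.16 (XBP1) to 0.11 (PSAT1). Their median was -0.07 in the ATF4 branch and -0.04 in the ER branch, beside 0.0024 for all named genes, shifts smaller than the median gap between the 2 arrays of a group, given below. That gap had the same direction in all 3 groups. Much of it cancels between groups, so it does not measure the error of these shifts. Both arrays lay above both controls for PSAT1 and VLDLR and below them for XBP1, against 24.4% of genes tested with both arrays above and 24.4% with both below. Leaving out 1 array turned the sign of these medians: without siNC replicate 1 they were 0.14 and 0.09, and without siMYEOV #1 replicate 2 they were 0.13 and 0.10. Leaving out 1 array also unbalances the replicate numbers, so the gap between the numbered arrays, given below, enters these medians. The smallest adjusted p was 0.306, for XBP1. A missed threshold does not show that a gene was unchanged: the 95% confidence interval lay within 0.5 of 0 for 17 of the 22, and reached -0.77 and 0.60 for DDIT3, the widest.

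With siMYEOV #2, XBP1 was lower, and no other member was called. XBP1 had log2 signals of 8.22 and 8.09 with siNC, 8.04 and 7.95 with siMYEOV #1, and 7.73 and 7.74 with siMYEOV #2. Both siMYEOV #2 arrays lay below all 4 others, and both siMYEOV #1 arrays below both controls. XBP1 fell by 0.42 ± 0.08 (SE) with siMYEOV #2, to 0.748 times the control signal (95% confidence interval -0.60 to -0.24, limma adjusted p = 0.0229). Within replicate 1 the difference was -0.49 and within replicate 2 it was -0.35. With siMYEOV #1 it was -0.16 ± 0.08 (adjusted p = 0.306), and the difference between the siRNAs was -0.25 (interval -0.43 to -0.07, adjusted p = 0.0905), so a difference between the siRNAs was not called. The XBP1 call was lost when no filter on dim genes was used (limma adjusted p = 0.156) and without siNC replicate 1 (0.107), siMYEOV #2 replicate 1 (0.1045) or siMYEOV #2 replicate 2 (0.1025), while its log2 fold change stayed between -0.48 and -0.35.

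That 1 call among 22 members compares with 6.83% of all genes called for siMYEOV #2 in either direction, 2.59% higher and 4.23% lower, so the share of members called was near that of all genes. Both arrays lay above both controls for 1 member, PSAT1 (25.0% of genes tested), and below them for SHMT2, WARS1, XBP1 and SEC61B, or 4 of 22 (25.6% of genes tested). At an unadjusted p under 0.05 there were 2 members, XBP1 and WARS1, or 9.09%, against 22.2% of all genes tested. Branch medians were -0.02 for ATF4 and -0.05 for ER, beside 0.0080 for all named genes. The control arrays of the siMYEOV #1 and siMYEOV #2 comparisons are the same 2, which ties their values together.

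**Figure D2:**
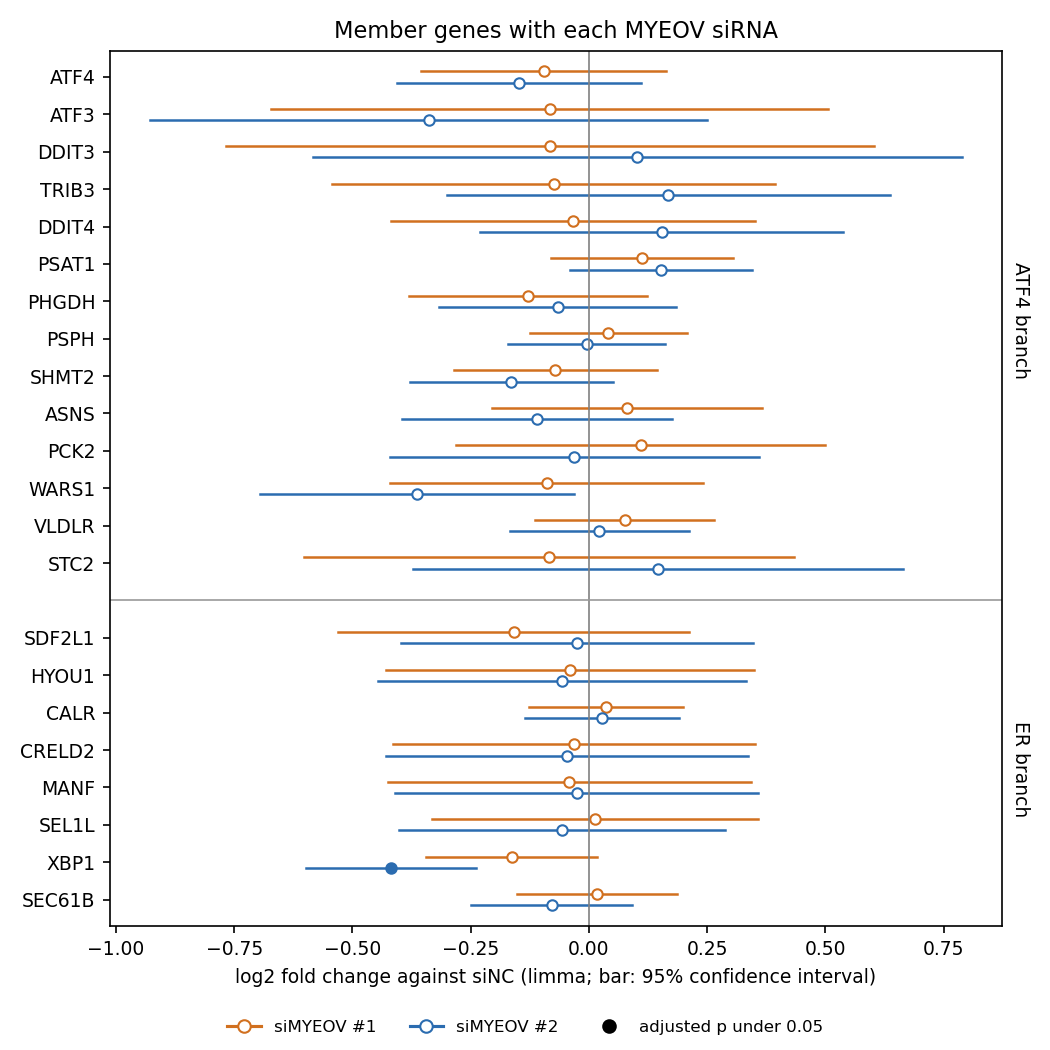
Log2 fold change of each of the 22 members against siNC with siMYEOV #1 and siMYEOV #2, with 95% confidence intervals from limma over 2 arrays per group, and filled points for an adjusted p under 0.05. XBP1 with siMYEOV #2, at -0.42, is the only filled point, and ATF3 and DDIT3 have the widest intervals.

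WARS1, the cytosolic tryptophanyl-tRNA synthetase, came next. Its log2 signals were 7.91 and 7.60 with siNC, 7.80 and 7.53 with siMYEOV #1, and 7.51 and 7.27 with siMYEOV #2. The siMYEOV #2 arrays lay below the 4 others, but within every group replicate 1 was above replicate 2 by 0.23 to 0.31, nearly as much as the siRNA difference. That difference was -0.36 ± 0.14 (SE, limma adjusted p = 0.187), and -0.40 and -0.33 within replicates 1 and 2. With the replicate number as a block, which removes the gap between the numbered arrays, WARS1 was called lower with siMYEOV #2 against siNC (limma adjusted p = 0.0220) and against siMYEOV #1 (-0.27, adjusted p = 0.0401). The block thus called 2 of 22 members with siMYEOV #2 against siNC, where it called 9.43% of all genes tested, and 1 of 22 against siMYEOV #1, where it called 12.4%, so neither count stands apart from those shares. A second, dimmer WARS1 row differed by -0.57, and the mean of both rows by -0.47 (adjusted p = 0.0478).

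**Figure D3:**
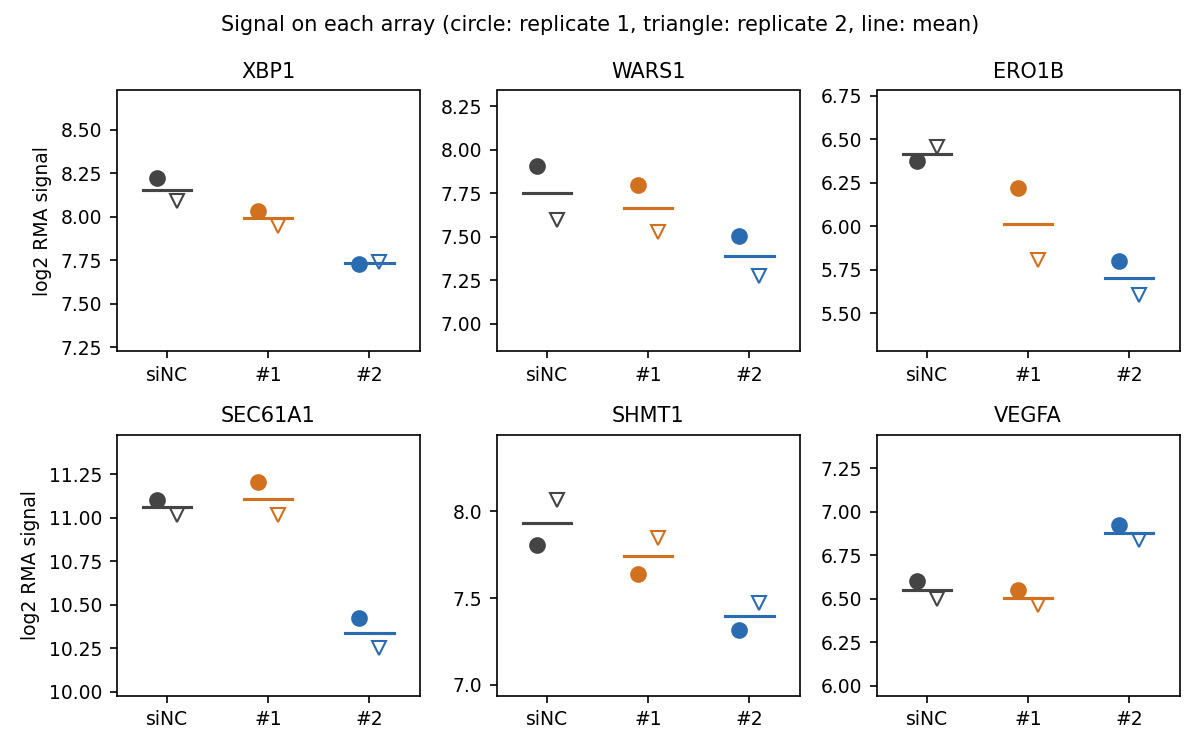
Log2 RMA signal on each array for XBP1 and WARS1 and for ERO1B, SEC61A1, SHMT1 and VEGFA, 4 called genes of wider lists, with the group mean as a line and the same log2 span on every axis. In XBP1, WARS1, ERO1B, SEC61A1 and SHMT1 both siMYEOV #2 arrays lie below the other 4 arrays, and in VEGFA above.

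None of the transcription factors of the ATF4 branch was called with either siRNA. ATF4 itself had log2 signals of 9.77 and 9.54 with siNC, 9.64 and 9.48 with siMYEOV #1, and 9.60 and 9.41 with siMYEOV #2. The groups overlapped, and the log2 fold changes were -0.10 ± 0.11 (SE) and -0.15 ± 0.11. DDIT3, the proapoptotic factor CHOP, had 6.73 and 6.04, 6.59 and 6.02, and 6.78 and 6.20 in the same order. Its 3 replicate 1 arrays all lay above its 3 replicate 2 arrays, and its fold changes of -0.08 and 0.10 were small beside the gap of 0.56 to 0.69 between the arrays of a group. With the replicate block, which removes that gap, the DDIT3 intervals were -0.24 to 0.08 and -0.06 to 0.26. ATF3, an early-induced repressor of the same family, had 6.66 and 6.12, 6.63 and 5.99, and 6.22 and 5.88. It was lowest with siMYEOV #2, at -0.34 ± 0.25 (limma adjusted p = 0.495), and the groups overlapped. The gap between the numbered arrays enters that overlap and that error. Within replicates 1 and 2 the ATF3 difference was -0.44 and -0.24. With the replicate block its interval was -0.55 to -0.13, and it was still not called (limma adjusted p = 0.0649).

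Feedback genes differed more between the numbered arrays of siNC and siMYEOV #1 than between siRNAs. TRIB3, a pseudokinase that dampens ATF4 and AKT signalling, had log2 signals of 8.05 and 7.58 with siNC, 7.95 and 7.53 with siMYEOV #1, and 8.15 and 7.82 with siMYEOV #2. Its fold changes were -0.07 and 0.17, and the difference between the siRNAs was 0.24 ± 0.20 (limma adjusted p = 0.534). With the replicate block the interval of that TRIB3 difference was 0.08 to 0.40, and it was not called (limma adjusted p = 0.0676). DDIT4, the mTORC1 inhibitor REDD1, had 9.73 and 9.34, 9.70 and 9.30, and 9.71 and 9.66. Here siMYEOV #2 replicate 2 was level with the replicate 1 arrays. STC2, a secreted glycoprotein induced by ER stress, had 9.04 and 8.62, 9.03 and 8.46, and 9.15 and 8.80, with fold changes of -0.08 and 0.15.

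Enzymes that make serine, glycine and asparagine were not called. The gap between the arrays of a group reached 0.14 for PSAT1 and 0.11 for PSPH. It reached 0.22 for SHMT2, 0.27 for PHGDH and 0.33 for ASNS. PSAT1, the transaminase of serine synthesis, had log2 signals of 11.40 and 11.33 with siNC, 11.53 and 11.42 with siMYEOV #1, and 11.59 and 11.45 with siMYEOV #2. All 4 siMYEOV arrays lay above both controls, by 0.11 ± 0.08 (SE) and 0.15 ± 0.08 on average (limma adjusted p = 0.520 and 0.341). PHGDH, the first enzyme of that pathway, differed by -0.13 and -0.07, PSPH, its last, by 0.04 and -0.0049, and the mitochondrial hydroxymethyltransferase SHMT2 by -0.07 and -0.16. ASNS, asparagine synthetase and a classical ATF4 target with the C/EBP-ATF core in its promoter, had 8.41 and 8.22, 8.44 and 8.35, and 8.37 and 8.04, with fold changes of 0.08 and -0.11. PCK2, the mitochondrial phosphoenolpyruvate carboxykinase, differed by 0.11 and -0.03, and VLDLR, a lipoprotein receptor, by 0.08 and 0.02.

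Apart from XBP1, none of the 8 ER branch members was called with either siRNA, and 0 of the 7 had an unadjusted limma p under 0.05. Of all genes tested, 4.66% were called with siMYEOV #1 and 6.83% with siMYEOV #2. For so few genes, 0 calls does not stand apart from those shares. SDF2L1, part of a chaperone complex, had log2 signals of 8.40 and 7.94 with siNC, 8.13 and 7.90 with siMYEOV #1, and 8.24 and 8.06 with siMYEOV #2. HYOU1, an exchange factor for the chaperone BiP, had 10.50 and 10.14, 10.46 and 10.09, and 10.39 and 10.13. The groups overlapped for both genes. With siMYEOV #2 the fold changes were -0.03 (95% confidence interval -0.40 to 0.35) and -0.06 (-0.45 to 0.33), and with the replicate block the intervals were -0.24 to 0.19 and -0.22 to 0.10. The size of the XBP1 change lay inside the HYOU1 interval without the block and outside both intervals with it.

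Calreticulin, CALR, a lectin chaperone, gave the tightest values of the ER branch, 12.35 and 12.39, 12.44 and 12.37, and 12.43 and 12.36. Its fold change with siMYEOV #2 was 0.03 (95% confidence interval -0.13 to 0.19), which excludes the size of the XBP1 change. CRELD2 and MANF, secreted proteins induced by ER stress, differed by -0.05 and -0.03 with siMYEOV #2 and by -0.03 and -0.04 with siMYEOV #1. SEL1L, the adaptor of the ER-associated degradation ligase, differed by -0.06 and 0.01, and SEC61B, a translocon subunit, by -0.08 and 0.02, in the same order of siRNAs. For the 8 ER branch members, intervals lay within 0.5 of 0 for 7 with siMYEOV #1 and for 7 with siMYEOV #2, against 10 and 8 of the 14 ATF4 branch members.

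**Figure D4:**
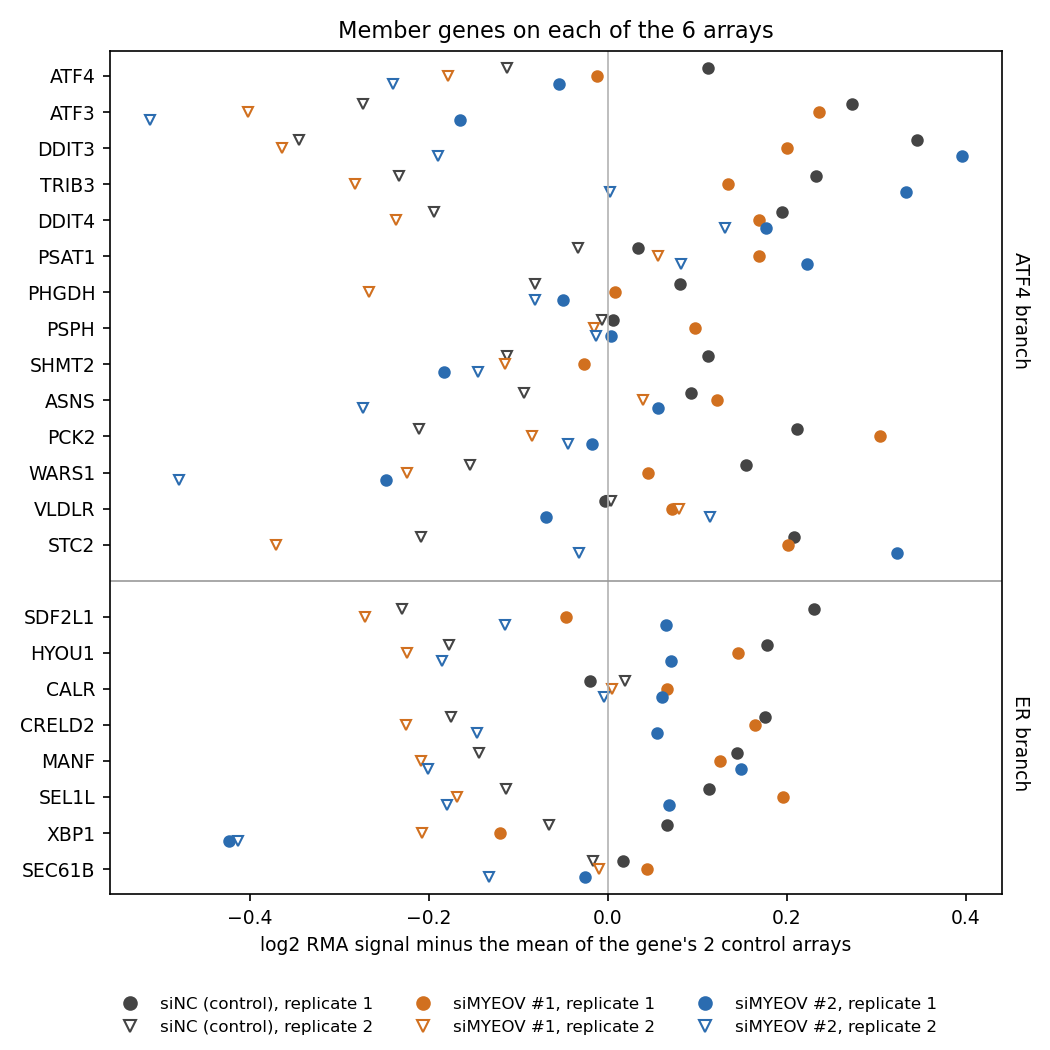
Log2 RMA signal of each member on each of the 6 arrays, as a difference from the mean of its 2 siNC arrays, with circles for replicate 1 and open triangles for replicate 2. In most members the circles lie to the right of the triangles whatever the siRNA, and XBP1 is a member whose siMYEOV #2 arrays lie together at the left.

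The largest regular difference among the members was between the numbered replicates and not between siRNAs. Replicate 1 was above replicate 2 in all 3 groups for 18 of the 22 members (81.8%), 12 of 14 in the ATF4 branch and 6 of 8 in the ER branch, against 19.3% of all genes tested. The median difference was 0.26 in siNC, 0.27 in siMYEOV #1 and 0.18 in siMYEOV #2, beside -0.0047, 0.012 and -0.0011 over all genes tested. By over 0.3 in every group it was seen in DDIT3, STC2, ATF3 and TRIB3, or 4 of 22, against 0.349% of all genes tested. The 4 exceptions were VLDLR, which had replicate 2 higher in every group, and SHMT2, CALR and XBP1, in which the sign differed between groups. These counts are a description, with no test, and were chosen after the values were seen.

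**Figure D5:**
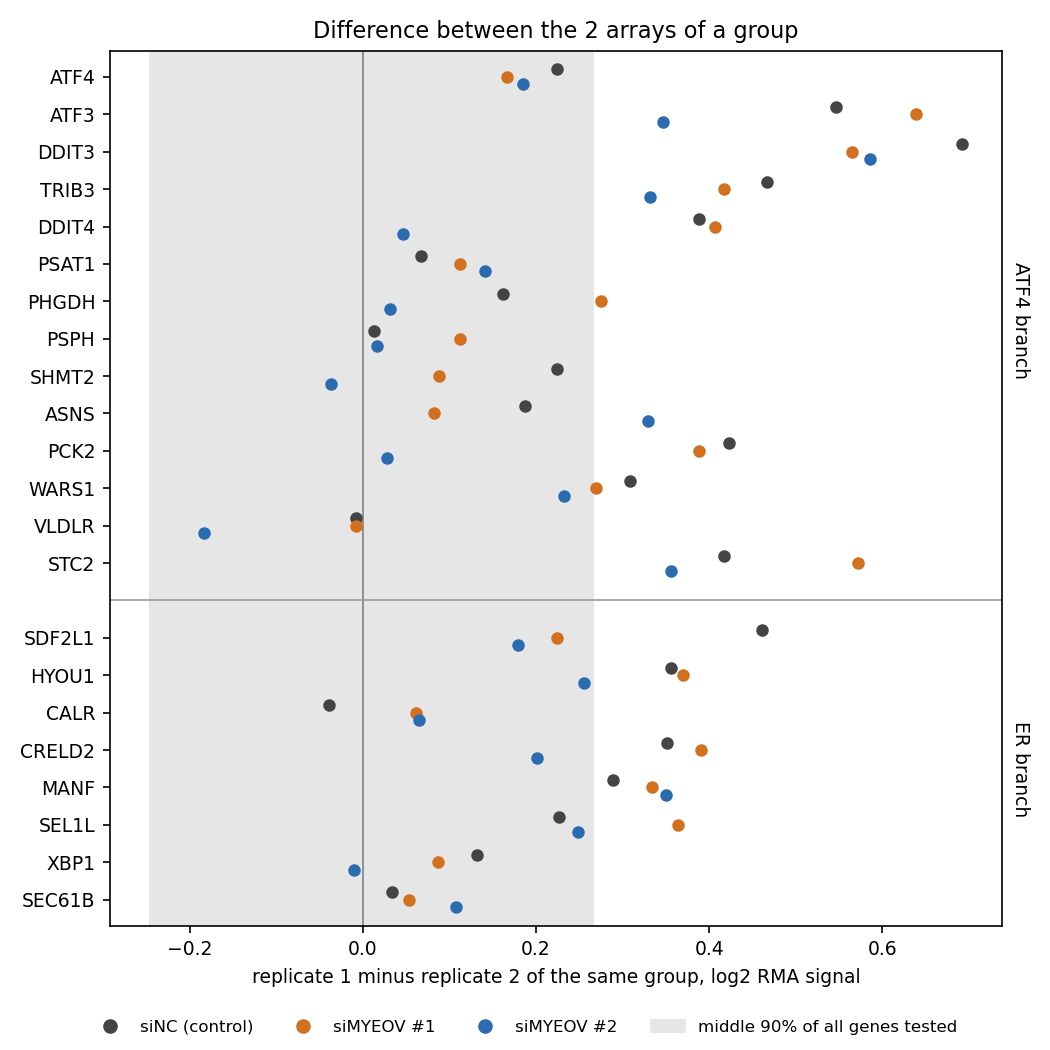
Replicate 1 minus replicate 2 within each group, in log2 RMA signal, for each member, with a grey band for the middle 90% of such differences over all genes tested, from -0.25 to 0.27. Most points lie right of 0, and DDIT3 lies furthest right, at 0.56 to 0.69.

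The gap between the numbered arrays widens the errors given here for these genes. Within groups the members had a median standard deviation of 0.20, against 0.08 for all genes tested, and the median standard error of their fold changes was 0.14 against 0.08. With the replicate block, which takes the shared gap out, the median standard error was 0.07 for both, and intervals lay within 0.5 of 0 for 22 of 22 members with siMYEOV #1 and 19 of 22 with siMYEOV #2. At an unadjusted p under 0.05 the block had 1 and 5 members, or 4.55% and 22.7%, against 23.4% and 26.2% of all genes tested. In wider lists fixed by name the median difference was smaller, but several shared the direction of the gap. Among 11 further ATF4 targets it was 0.10, 0.14 and 0.08 in siNC, siMYEOV #1 and siMYEOV #2. Replicate 1 was higher in all 3 groups for 6 of them (54.5%), and by over 0.3 for 3 (27.3%). Among 16 tRNA synthetases the median difference was 0.06, 0.07 and 0.06, and among 17 genes of ER entry -0.02, 0.04 and 0.02. Replicate 1 was higher in all 3 groups for 9 (56.2%) and 5 (29.4%) of these. The same held for 7 of 12 further ER-associated degradation genes (58.3%) and 6 of 12 upstream sensors and regulators (50%). Of 9 further ER folding genes it held for 3 (33.3%), and of all genes tested for 19.3%. SHMT1 went the other way in every group. Of the listed genes with a large gap, chosen after their values were seen, the secreted stress cytokine GDF15 had log2 signals of 10.23 and 9.69 with siNC, 10.18 and 9.70 with siMYEOV #1, and 10.16 and 9.70 with siMYEOV #2, with fold changes of -0.02 and -0.03. SESN2, a leucine sensor and ATF4 target, and ERN1 differed between replicates by 0.35 to 0.63 and by 0.36 to 0.52. What the replicate numbers stand for is not stated in the labels, and its part in these values was not tested.

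Upstream of the branches, 12 of 22 listed sensors and regulators were measured and 0 were called by limma with either siRNA, with 1 at an unadjusted p under 0.05 in each comparison. These were ATF5 with siMYEOV #1, at -0.17 (limma adjusted p = 0.228), and GCN1 with siMYEOV #2, at -0.24 (adjusted p = 0.0901). EIF2AK3, the ER stress kinase PERK, differed by -0.03 and -0.04, EIF2AK4, the amino acid sensor GCN2, by -0.0026 and -0.14, and ATF6 by 0.0020 and 0.06. ERN1 differed by 0.17 and 0.13 (limma adjusted p = 0.715 and 0.788). The 16 measured cytosolic tRNA synthetases, many of them ATF4 targets, also had 0 called genes with either siRNA, with 1 and 0 at an unadjusted p under 0.05, and medians of -0.04 and -0.06. Of the 12 measured genes of ER-associated degradation beyond the members, 0 were called, with 0 and 1 at an unadjusted p under 0.05. Limma called 4.66% and 6.83% of all genes tested with siMYEOV #1 and siMYEOV #2. In lists this small, 0 calls does not stand apart from those shares.

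Among further ATF4 targets, 11 of 21 were measured and 9 tested. With siMYEOV #2, 1 was called higher and 1 lower, beside 2.59% and 4.23% of all genes tested. VEGFA, the angiogenic factor, had log2 signals of 6.60 and 6.50 with siNC, 6.55 and 6.46 with siMYEOV #1, and 6.92 and 6.84 with siMYEOV #2. The siMYEOV #2 arrays lay above the other 4. It rose by 0.33 ± 0.08 (SE, limma adjusted p = 0.0499), at the edge of the threshold, was called under 2 of 14 alternative settings, and lost the call when any 1 of the 6 arrays was left out (0.0847 to 0.201). SHMT1, the cytosolic hydroxymethyltransferase, had 7.80 and 8.06, 7.64 and 7.84, and 7.31 and 7.47. It fell by 0.54 ± 0.12 (adjusted p = 0.0407), was called under 6 of 15 alternative settings, and likewise lost the call without any 1 of the 6 arrays (0.0558 to 0.162). CTH, which makes cysteine from cystathionine and was singled out after its values were seen, was below the filter, with 5.52 and 5.62, 5.68 and 5.35, and 4.67 and 4.99. Its difference of -0.74 with siMYEOV #2 was not called with no filter (limma adjusted p = 0.145).

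In the ER, 8 further folding genes were tested and 1 was called, lower with siMYEOV #2. ERO1B, an oxidase that recharges disulfide isomerases, had log2 signals of 6.37 and 6.46 with siNC, 6.22 and 5.81 with siMYEOV #1, and 5.80 and 5.61 with siMYEOV #2. It fell by 0.71 ± 0.14 (SE, limma adjusted p = 0.0293) and differed by -0.40 ± 0.14 with siMYEOV #1 (adjusted p = 0.172). The call with siMYEOV #2 was lost with no filter (0.159) and without siNC replicate 1 (0.110), siNC replicate 2 (0.124), siMYEOV #2 replicate 1 (0.0645) or siMYEOV #2 replicate 2 (0.139). ERO1B and XBP1 were also the called genes among the 10 tested genes whose promoter window held ERSE, or 20% beside the 6.83% of all genes tested, with a median over the 10 of -0.05. CALR, CRELD2 and CANX, a lectin chaperone, hold ERSE too and differed by 0.03, -0.05 and 0.02. Of 13 tested genes with ERSE-II, 0 were called by limma with siMYEOV #2, and of 143 with the C/EBP-ATF core, 9 were (6.29%), close to that same share of all genes.

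SEC61A1, the pore subunit of the translocon through which proteins enter the ER, had the largest change of the genes called in these lists. Its log2 signals were 11.10 and 11.02 with siNC, 11.20 and 11.01 with siMYEOV #1, and 10.42 and 10.25 with siMYEOV #2. Both siMYEOV #2 arrays lay below the other 4, by more than the gap between replicates of this gene in any group. It fell by 0.72 ± 0.10 (SE) with siMYEOV #2, to 0.606 times the control signal (limma adjusted p = 0.00610), and differed by 0.05 ± 0.10 with siMYEOV #1 (adjusted p = 0.833). With no filter the adjusted p was 0.0586, and without siNC replicate 1 it was 0.0522. It was the 1 gene called of 16 tested for ER entry, where 6.83% of all genes tested were called with siMYEOV #2. The median of the 17 measured was 0.02, and its partner SEC61B differed by -0.08 ± 0.07.

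The difference between the siRNAs was tested directly. Limma called 9.15% of genes tested for siMYEOV #2 against siMYEOV #1 (3.78% higher and 5.37% lower) and 0 of the 22 members, with 1 member, XBP1, at an unadjusted p under 0.05. The siMYEOV #2 arrays lay above both siMYEOV #1 arrays for 0 members (27.5% of genes tested) and below them for SHMT2, WARS1, XBP1 and SEC61B (27.1%). Branch medians were -0.05 for ATF4 and -0.02 for ER, beside 0.0037 for all named genes. The members furthest apart were WARS1 at -0.27, ATF3 at -0.25, XBP1 at -0.25, TRIB3 at 0.24 and STC2 at 0.23, and of these 5 the intervals of all but XBP1 spanned 0. With the replicate block none of the 5 intervals spanned 0, and WARS1 alone was called, where the block called 12.4% of all genes tested. These 5 and DDIT3 made 6 of 22 members (27.3%) at an unadjusted limma p under 0.05 with the block. That share was near the 27.7% of all genes tested. Between the branches, the ER branch stayed closer to 0 apart from XBP1, with a median absolute log2 fold change of 0.04 against 0.16 in the ATF4 branch and 0.11 over all genes tested for this comparison. This contrast of the branches is a description of 8 and 14 genes and was not tested.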

How the data were processed

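The deposited values are log2 signals obtained by the authors through RMA (per the submitters' processing notes, no version given). RMA corrects background, makes array distributions alike and fits 1 value to each probe set, and it compresses differences of dim genes. Of 53617 rows, 16098 carry 1 gene symbol in the platform annotation, 0 several and 37519 none. Symbols were updated through gene identifiers with RefSeq (GRCh38.p14), where all 16098 matched. The brightest row stood for a gene. Genes with a mean of at least 5.45, the median of all 14884, were tested with limma 3.58.1 in R 4.3.3 over all 6 arrays (3 residual and 4.09 prior degrees of freedom), and called where the adjusted p (Benjamini-Hochberg) was under 0.05. For 2 arrays against 2, the smallest exact permutation p is 0.333. The steps were tested on simulated data with independent noise on each array. These held no gap between the numbered arrays, so they do not show how the fit behaves with it.

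Same-numbered arrays deviated together: over 7442 genes, the differences between replicates 1 and 2 correlated at 0.265 between siNC and siMYEOV #1, 0.205 between siNC and siMYEOV #2 and 0.251 between the siRNAs. By this the numbers pair the arrays, from the data only, as the labels do not explain them. The fit behind the values has no block all the same. The fit with the replicate number as a block (2 residual and 3.92 prior degrees of freedom) was an alternative. Its values are given where they alter a call of a member or listed gene, and for some intervals and adjusted p-values.

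Members and lists were chosen with earlier results of these data known. Every member with a named row could be named, and of wider lists the genes called in at least 1 comparison, at most 4 per list, comparison and direction. Other genes of these lists are named as examples, chosen after their values were seen. Precision is limited by the number of arrays. Figures were drawn with matplotlib 3.10.9.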

Additional observations from a re-analysis of the deposited data

Results flagged for a closer look

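SEC61A1 and VEGFA differed between the siRNAs by a direct test of siMYEOV #2 against siMYEOV #1. SEC61A1 differed by -0.77 (limma adjusted p = 0.00383) and was called under all 15 alternative settings. VEGFA differed by 0.37 (limma adjusted p = 0.0274) and was called under 9 of 14 alternative settings. The VEGFA call was lost with no filter (0.157) and when either siMYEOV #1 array or either siMYEOV #2 array was left out (0.0777 to 0.152).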

How the results depend on the processing

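With no filter on dim genes, 39, 139 and 195 genes were called for siMYEOV #1 against siNC, siMYEOV #2 against siNC and siMYEOV #2 against siMYEOV #1, where 347, 508 and 681 were called with it, and 0 ER branch members with siMYEOV #2. Fitting only the 2 groups compared called 330 for siMYEOV #2 against siNC. Leaving out each array in turn gave 60 to 238, 207 to 330 and 224 to 618 genes, 0 to 1 ER branch members with siMYEOV #2, and ATF4 branch medians with siMYEOV #1 from -0.21 to 0.14. The other branch medians ranged from -0.21 to 0.10 (ER, siMYEOV #1), -0.17 to 0.02 and -0.20 to 0.09 (ATF4 and ER, siMYEOV #2), and -0.10 to 0.06 and -0.18 to 0.14 (between the siRNAs). The replicate block called 420, 702 and 922 genes, 1 ATF4 branch member, WARS1, with siMYEOV #2 against siNC and 1 against siMYEOV #1, and SHMT1 against siMYEOV #1 (adjusted p = 0.0220), and ended no call of a member or listed gene named here. Averaging the rows of a gene called 1 ATF4 branch member with siMYEOV #2, and the 75th percentile filter 1 ER branch member, XBP1, against siMYEOV #1. Of 324 member values per comparison over the 15 alternatives (quantile normalization, median centring, array weights and a trend and robust prior were the others), 0 called values reversed. A reversal was counted only where the main fit or the alternative called the gene. With siMYEOV #1 no member was called under any setting, so none could reverse there. Uncalled members did change sign, such as DDIT3 with siMYEOV #1, from -0.43 to 0.26. Dim genes and the 2 arrays per group limit what can be detected.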

Other observations

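The 7442 tested genes included 26 in which replicate 1 exceeded replicate 2 by over 0.3 in all 3 groups. Besides the members DDIT3, STC2, ATF3 and TRIB3, and GDF15, SESN2 and ERN1 of the wider lists, they included the immediate early transcription factors EGR1, with differences of 0.98 in siNC, 0.75 with siMYEOV #1 and 1.00 with siMYEOV #2, and JUN, with 0.45, 0.47 and 0.70. DUSP6, a phosphatase that limits ERK signalling, differed by 0.62, 0.46 and 0.40. These genes were singled out after their values were seen.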
